A study of Homo sapiens with 6 samples.

Results

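CDK inhibitor genes, the CDKN family, were examined in DLD1, an established line of human colorectal adenocarcinoma cells, after lentiviral delivery of a control short hairpin RNA (shRNA) or one directed at the kinase gene CDKL1. The family was taken as CDKN1A, CDKN1B, CDKN1C, CDKN2A, CDKN2B, CDKN2C, CDKN2D and CDKN3. Of these 8 genes, 7 were read by at least 1 probe set annotated with exactly 1 gene symbol, which gave 22 of the 49395 probe sets and 7 of the 18132 genes tested. CDKN2C was not analysed here. The brightest probe set of a gene, by its mean over all arrays, gave the gene's value. The control group held 3 samples of DLD1 cells that had received lentivirus with a control shRNA, and the CDKL1 shRNA group held 3 samples that had received lentivirus with an shRNA against CDKL1. Each sample was hybridised to 1 Affymetrix expression array. All samples shared the DLD1 background, the RPMI1640 medium with fetal bovine serum and exposure to a lentivirus. The labels name no hairpin sequence, time after infection or selection step, and they do not say whether the samples of a group came from separate infections. The p-values therefore reflect only the spread of these 6 samples, part of which may be technical.

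Cyclin-dependent kinases (CDKs) with their cyclin partners drive cells through the division cycle, and CDKN proteins restrain them. The INK4 proteins, encoded by CDKN2A (p16), CDKN2B (p15), CDKN2C (p18) and CDKN2D (p19), bind CDK4 and CDK6 and keep them from their D-type cyclins, so that the retinoblastoma protein stays able to hold back E2F transcription factors. The CIP/KIP proteins, encoded by CDKN1A (p21), CDKN1B (p27) and CDKN1C (p57), bind whole cyclin-CDK complexes, in particular those of CDK2. CDKN3 is a phosphatase that removes the activating phosphate from CDK2. In intestinal epithelium, p21, p27 and the INK4 proteins are known for their part in the arrest of cells that leave the crypt, and CDKN2A is often silenced by promoter methylation in colorectal cancer.

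All values are log2 expression values after RMA, in which 1 unit is a doubling of signal, and differences are CDKL1 shRNA minus control shRNA. The targeted gene, CDKL1, was read at 4.37 ± 0.18 among controls and 4.17 ± 0.09 under CDKL1 shRNA (SD, n = 3 each). Both means lay within the 2.97 to 4.92 spanned by background control probe sets and the difference was not called (adjusted p = 0.219 by limma), so this probe set does not check the labels. It was called only without control replicate 3, at -0.29 (limma adjusted p = 0.0489). The 3' minus 5' difference of the ACTB control probe sets, a sign of RNA quality, was 1.40 ± 0.013 among controls and 1.60 ± 0.115 under CDKL1 shRNA (SD, n = 3 each). This difference of 0.198 moved with the groups, as did that of GAPDH at 0.0722 (exact two-sided permutation p = 0.1 for each, the smallest that 3 arrays against 3 allow). The epithelial marker EPCAM had a level of 13.52 in control and 13.53 in CDKL1 shRNA arrays. Of 13 epithelial markers 2 rose, KRT20 by 0.52 and CLDN3 by 0.33, and 1 fell, VIL1 by 0.57 (0 falls without control replicate 1 or 3). Over all genes 8.97% were called higher and 7.79% lower. The log2 of the summed signal of the epithelial list was 16.09 to 16.10 in control and 16.02 to 16.05 in CDKL1 shRNA arrays. Of 9 fibroblast markers 1 rose, POSTN, a call that was lost without any 1 array. The means of 5 of the 9, POSTN among them, lay within the range of background controls. Of 8 leukocyte markers 2 rose, CD68 and CD163 (1 without control replicate 1 or 2 or CDKL1 shRNA replicate 2 or 3). The log2 of the summed signal of the leukocyte list was 8.31 to 8.40 in control and 8.48 to 8.58 in CDKL1 shRNA arrays. PTPRC, which marks all leukocytes, was at 3.62 and 3.49, within the background range. So were the means over all arrays of 4 of the 8 genes, PTPRC and CD163 among them. CD163 was at 4.56 in control and 5.21 in CDKL1 shRNA arrays, the latter above that range. The part of RNA quality and of these markers in the results that follow was not tested. A fit that took the ACTB difference as a covariate is also given. Because that difference moved with the groups, the fit cannot tell RNA quality apart from the shRNA. A call lost in that fit is therefore not assigned to either.

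The family did not move as a group. CDKN2B was 1.80-fold higher in CDKL1 shRNA arrays, CDKN2D was 1.24-fold lower and CDKN3 was 1.26-fold lower, and CDKN1A, CDKN1B, CDKN1C and CDKN2A did not pass the test. A gene was called when its limma p was under 0.05 after Benjamini-Hochberg adjustment over the 18132 genes. By this rule 3 of 7 members were called, 1 higher and 2 lower, where 16.8% of all genes were called, 8.97% higher and 7.79% lower. The arrays of the 2 groups did not overlap for the same 3 members, against 35.7% of all genes. With 7 members these counts describe the family and are not a test of it. Over the probe sets, 9 of 22 were called, 2 higher and 7 lower, against 12.6% of all probe sets. Several of these read the same gene and are not independent of each other.

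**Figure D1:**
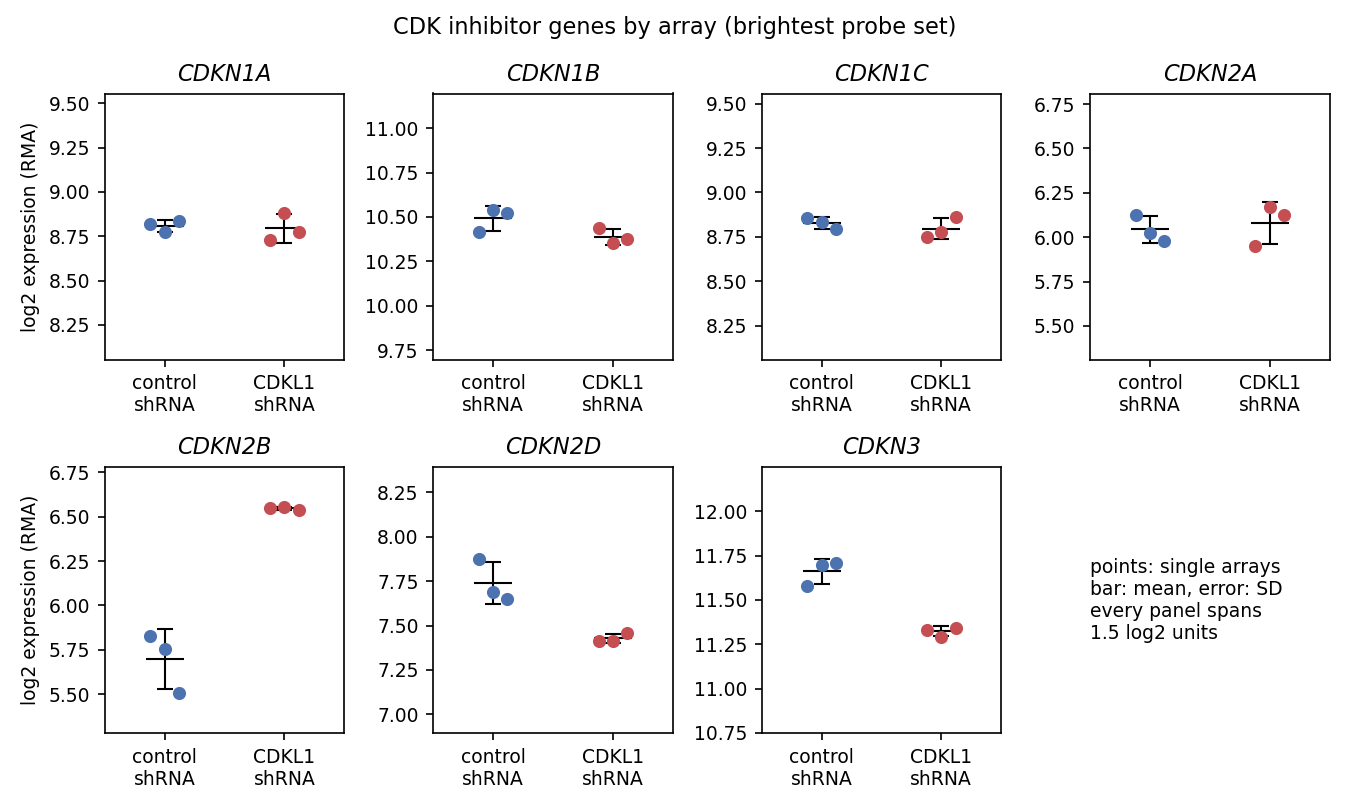
Log2 expression (vertical axis) of the 7 CDK inhibitor genes in each array, by brightest probe set, with the group mean and SD (n = 3 each); every panel spans the same range of log2 units. CDKN2B lies higher, and CDKN2D and CDKN3 lie lower, in all 3 CDKL1 shRNA arrays, while the groups overlap in the other panels.

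CDKN2B encodes p15, the INK4 inhibitor known for its induction by TGF-beta through SMAD proteins and Sp1 and for its repression by MYC with ZBTB17. Its brightest probe set, 11736163_a_at, read 5.83, 5.76 and 5.51 in control replicates 1, 2 and 3 and 6.55, 6.55 and 6.54 in CDKL1 shRNA replicates 1, 2 and 3. Every CDKL1 shRNA array was thus above every control array, and the spread was wider among controls (SD 0.169) than among CDKL1 shRNA arrays (SD 0.0084). The log2 change was 0.85 (SE 0.08, 95% interval 0.66 to 1.04), with an adjusted p of 0.000976 by limma. This is a fold of 1.80 with an interval from 1.58 to 2.06, and 1.2% of all genes were both called and changed at least 1.5-fold. A second probe set, 11726508_a_at, read 5.31, 5.41 and 5.45 among controls and 6.18, 6.44 and 6.62 under CDKL1 shRNA, a rise of 1.02 (SE 0.11, adjusted p = 0.00171 over all probe sets, limma). The third, 11726507_a_at, read 4.43 to 4.79 among controls and 4.58 to 4.78 under CDKL1 shRNA, with a difference of 0.05 (limma adjusted p = 0.803). Its mean lay within the range of background controls, so it bears little on the gene. Averaging all 3 probe sets gave a log2 change of 0.64, which also passed. The rise was called without any 1 of the 6 arrays, at 0.75 to 0.92. When the ACTB difference was added as a covariate the rise was 0.81 (SE 0.16) and was not called (adjusted p = 0.0710, limma).

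CDKN2D encodes p19, the INK4 member whose transcript is known to vary through the cell cycle. Its only probe set, 11725107_at, read 7.87, 7.69 and 7.65 among controls and 7.41, 7.41 and 7.46 under CDKL1 shRNA. The groups did not overlap, and the lowest control array lay 0.193 above the highest CDKL1 shRNA array. CDKN2D fell by 0.31 on the log2 scale (SE 0.07, 95% interval -0.46 to -0.16, limma adjusted p = 0.0186), a change of -19.3% with an interval from -27.4% to -10.3%. This is the least firm of the 3 calls. It was lost without CDKL1 shRNA replicate 1 (adjusted p = 0.0639), replicate 2 (adjusted p = 0.0559) or replicate 3 (adjusted p = 0.0544) in limma fits that held fewer arrays, with log2 changes of -0.30, -0.30 and -0.32. The value under the ACTB covariate was -0.30 (adjusted p = 0.259, limma).

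CDKN3, the CDK-associated phosphatase gene, is known to be transcribed most in dividing cells, so its place among inhibitors differs from that of the INK4 and CIP/KIP genes. Probe set 11730821_x_at read 11.58, 11.69 and 11.71 among controls and 11.33, 11.29 and 11.34 under CDKL1 shRNA. All 3 CDKL1 shRNA arrays were below all controls. The log2 change was -0.34 (SE 0.05, 95% interval -0.46 to -0.22, limma adjusted p = 0.00501), which is -20.9% with an interval from -27.2% to -14.2%. CDKN3 had 8 probe sets, the most of any member, and all 8 had a negative sign. Of these, 6 were called lower, with log2 changes from -0.39 to -0.32. The probe set 11753880_x_at was lower by nearly as much, at -0.34, in 3 of 3 CDKL1 shRNA arrays, but its control arrays ranged from 9.41 to 9.76 and it did not pass (limma adjusted p = 0.0577 over all probe sets). The probe set 11762243_at stood apart, with a log2 change of -0.0046 (limma adjusted p = 0.977), with arrays from 6.16 to 6.39 in controls and 6.24 to 6.35 under CDKL1 shRNA. The suffix _x, which 7 of the 8 carry, marks probe sets that may bind other transcripts, and whether they share probes was not examined, so they do not count as 8 measurements. The call held without any 1 array (-0.38 to -0.32) and was lost with the ACTB covariate, at -0.29 (SE 0.10, adjusted p = 0.183, limma).

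**Figure D2:**
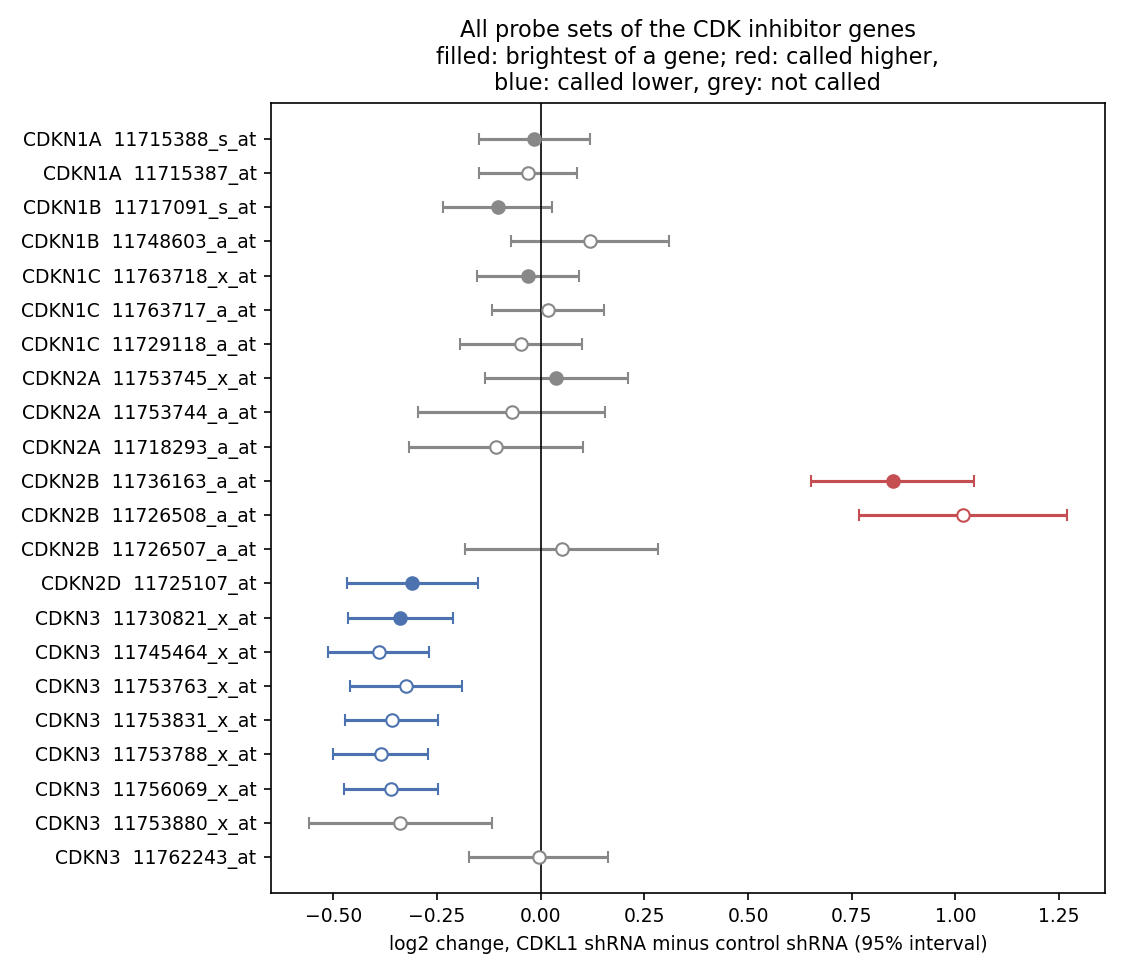
Log2 change with 95% interval (horizontal axis) for each of the 22 probe sets of the 7 genes, from the limma fit over all probe sets; filled points are the brightest probe set of a gene, and colour gives the call. The brighter CDKN2B probe sets lie at 0.85 and 1.02 and the third near 0, and 7 of 8 CDKN3 probe sets lie between -0.39 and -0.32.

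The 3 CIP/KIP genes showed no called change in either direction. CDKN1A, whose product p21 is the inhibitor known for its induction by p53, read 8.82, 8.77 and 8.83 among controls and 8.73, 8.88 and 8.77 under CDKL1 shRNA. The groups overlapped, and both the highest and the lowest array of the 6 were CDKL1 shRNA arrays. The log2 difference was -0.02 (95% interval -0.14 to 0.11, limma adjusted p = 0.885), or -9.30% to 7.93%. Under the ACTB covariate it was -0.14 (SE 0.08, limma adjusted p = 0.400), beyond the lower end of that interval. The second CDKN1A probe set gave -0.03. CDKN1B, whose product p27 is kept low in dividing cells by the ubiquitin ligase subunits SKP2 and CKS1B, read 10.41, 10.54 and 10.52 against 10.44, 10.35 and 10.38. Control replicate 1 lay below CDKL1 shRNA replicate 1, so the groups overlapped, and the difference was -0.10 (95% interval -0.23 to 0.02, limma adjusted p = 0.237). Its dimmer probe set had the opposite sign, at 0.12, and the mean of both gave 0.0078. CDKN1C, the imprinted gene of p57, read 8.86, 8.83 and 8.79 against 8.75, 8.77 and 8.86, with a difference of -0.03 (95% interval -0.14 to 0.08, limma adjusted p = 0.726). Its other probe sets gave 0.02 and -0.05. With the ACTB covariate CDKN1B was at -0.04 and CDKN1C at -0.02, neither called. These intervals bound the mean differences of the fit without a covariate but do not show that the levels were equal.

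CDKN2A, which encodes p16 and, in another reading frame, the MDM2 inhibitor ARF, read 6.13, 6.02 and 5.98 among controls and 5.95, 6.17 and 6.12 under CDKL1 shRNA. The values of the groups interleaved, and the log2 difference was 0.04 (95% interval -0.13 to 0.21, limma adjusted p = 0.778). The other probe sets gave -0.07 and -0.11, the latter at a mean level within the range of background controls. The sign of the small difference turned with the mean of all probe sets (-0.047), under the ACTB covariate (-0.12) and when CDKL1 shRNA replicate 2 was left out (-0.0069), so no direction is given for CDKN2A. The probe sets were annotated to the gene and were not assigned here to its p16 or ARF transcript.

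CDKN2A and CDKN2B are neighbours on chromosome 9, next to MTAP, which encodes an enzyme of methionine salvage, and to the antisense RNA gene CDKN2B-AS1, known as ANRIL. The brightest MTAP probe set differed by -0.08 (SE 0.06, limma adjusted p = 0.427). Of its 6 probe sets 1 was called, 11726116_at, which read 8.69, 8.83 and 8.86 among controls and 9.12, 9.24 and 9.21 under CDKL1 shRNA, a rise of 0.40 (limma adjusted p = 0.00889 over all probe sets). CDKN2B-AS1 was read at 3.97 ± 0.19 and 4.07 ± 0.31 (SD, n = 3 each), within the background range, with a difference of 0.10 (limma adjusted p = 0.732). The rise of 0.85 in CDKN2B thus stood beside 0.04 for CDKN2A and -0.08 for MTAP, given side by side as a description.

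The promoter sequences of the 3 called members are shown because these genes moved in opposite directions and their starts can be compared. Each is the 250 bases before the RefSeq start site in GRCh38.p14, written 5' to 3' on the gene's strand. CDKN2B lies at chr9:22009306-22009555 on the minus strand, CDKN2D at chr19:10568980-10569229 on the minus strand and CDKN3 at chr14:54396757-54397006 on the plus strand. Capitals mark matches, on either strand and with overlaps allowed, to the GC box GGGCGG, the CCAAT box, the cell cycle gene homology element TTTGAA (the CHR, bound by MuvB complexes in many mitotic genes) and the E2F site TTTNGCGC.
CDKN2B: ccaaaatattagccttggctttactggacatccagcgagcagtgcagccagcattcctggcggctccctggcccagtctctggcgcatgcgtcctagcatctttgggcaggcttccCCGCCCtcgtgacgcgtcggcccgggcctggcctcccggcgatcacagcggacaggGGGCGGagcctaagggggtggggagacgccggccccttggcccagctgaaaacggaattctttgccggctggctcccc
CDKN2D: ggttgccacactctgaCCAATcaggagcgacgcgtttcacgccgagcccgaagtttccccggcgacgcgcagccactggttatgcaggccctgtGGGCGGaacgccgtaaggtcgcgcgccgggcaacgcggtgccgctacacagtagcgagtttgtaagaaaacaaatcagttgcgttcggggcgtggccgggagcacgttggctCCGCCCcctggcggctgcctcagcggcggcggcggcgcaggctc
CDKN3: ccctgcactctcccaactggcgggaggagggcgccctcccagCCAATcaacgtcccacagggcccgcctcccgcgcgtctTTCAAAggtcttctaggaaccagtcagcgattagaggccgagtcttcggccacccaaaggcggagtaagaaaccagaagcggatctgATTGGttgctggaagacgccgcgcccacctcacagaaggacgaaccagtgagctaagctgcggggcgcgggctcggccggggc

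CDKN2B held 2 GC boxes and no match to the other motifs. CDKN2D held 2 GC boxes and 1 CCAAT box. CDKN3 held 2 CCAAT boxes and 1 CHR, which starts 170 bases before the start site on the minus strand, and no GC box. Among all 35116 RefSeq windows of this length, 42.6% held a GC box, 32% a CCAAT box, 13.3% a CHR and 1.51% TTTNGCGC. For comparison, CDKN1A held 4 GC boxes and CDKN1B 1 GC box and 2 CCAAT boxes, so a CCAAT box was present in members with and without a call. These matches describe letters in a short window and not binding.

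In a list of 16 cyclins, CDKs and CDK-activating subunits, which CDKN proteins act on or beside, 6 fell, 0 rose and 10 did not pass, where 7.79% of all genes were called lower and 8.97% higher, with a median log2 change of -0.13 beside -0.01 over all genes. The lists of this and the next paragraphs were chosen with earlier results of these data known, and they are described by counts and medians only. CDK2, the kinase that p21, p27 and CDKN3 act on, went from 9.47 ± 0.04 to 8.95 ± 0.03 (SD, n = 3 each), a fall of 0.53 (SE 0.04, limma adjusted p = 0.000563), with 3 of 3 probe sets called lower. CDK4, the main partner of the INK4 proteins, fell by 0.27 (SE 0.04) in its brightest probe set, and all 4 of its probe sets were called lower, from -0.34 to -0.23. CDK1 and its partner CCNB2 fell by 0.25 and 0.24. All 3 CDK1 probe sets were lower, but only 1 was called over all probe sets. CDK6, the other INK4 target, had a difference of 0.08 (limma adjusted p = 0.334). CCND1, a D-type cyclin gene, had one of 0.05 (limma adjusted p = 0.454). Of its 4 probe sets 3 were lower, down to -0.28, and 1 was called lower. With the mean of all 4 the sign turned, to -0.15, without a call (limma adjusted p = 0.105). CCNB1 fell by 0.24 and CCNE1, the partner of CDK2 at S phase entry, by 0.18. The call of CCNB1 was lost without control replicate 2 or 3 (limma adjusted p = 0.0559 and adjusted p = 0.0557), and that of CCNE1 without any 1 array except CDKL1 shRNA replicate 2 (limma adjusted p from 0.0550 to 0.103), after subtraction of array medians (adjusted p = 0.0510) and with the mean of its probe sets (adjusted p = 0.0861). CCNA2 was at -0.15 and did not pass (limma adjusted p = 0.0611), although its groups did not overlap. It passed after further quantile normalisation (limma adjusted p = 0.0298) and with dim genes removed (adjusted p = 0.0109). The mean of both CCNA2 probe sets, at -0.24, also passed (limma adjusted p = 0.00849), and 1 of the 2 was called lower over all probe sets. None of the 6 falls was called under the ACTB covariate.

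Among the proteins downstream of the inhibitors, RB1, which encodes the retinoblastoma protein, rose by 0.29 (SE 0.07, limma adjusted p = 0.0276), and the E2F genes E2F3 and E2F5 fell by 0.42 and 0.39 (limma adjusted p = 0.000925 and adjusted p = 0.00314). E2F3 had 3 of 3 probe sets with a negative sign, and 2 of them were called. RB1 lost its call without control replicate 1 or 3 or CDKL1 shRNA replicate 1 or 3 (limma adjusted p from 0.0699 to 0.0849). E2F1 was at -0.05 (limma adjusted p = 0.658). In all, 1 of 13 RB and E2F genes rose and 2 fell, with a median of -0.04. Of 17 E2F target genes 1 rose and 3 fell, with a median of -0.09. Over all genes 8.97% rose and 7.79% fell. The thymidylate synthase gene TYMS fell by 0.30, the B-Myb gene MYBL2 by 0.23 and the helicase gene MCM2 by 0.17, and the phosphatase gene CDC25A, whose product activates CDK2, rose by 0.30. The count of falls was 1 without control replicate 3 or CDKL1 shRNA replicate 3 and 2 without any other array, the call of MCM2 being lost in each case. CDC25A lost its call without control replicate 3 or CDKL1 shRNA replicate 2 or 3, and MYBL2 without control replicate 3 or CDKL1 shRNA replicate 3. Under the ACTB covariate 0 genes of both lists were called.

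Of 24 genes of the p53 pathway, to which CDKN1A belongs, 4 rose and 5 fell, against 8.97% and 7.79% of all genes, with a median of -0.05. GADD45A, a growth arrest gene, fell by 0.59 (SE 0.06, limma adjusted p = 0.000892), while TRIAP1 rose by 0.35, TP53I3 by 0.33 and the death receptor gene TNFRSF10B by 0.24. The remaining calls were a rise of ZMAT3 by 0.22 and falls of BBC3 by 0.34, BAX by 0.26, XPC by 0.25 and DDB2 by 0.20. TNFRSF10B rested on 1 of its 3 probe sets, the mean of which gave 0.10 without a call (limma adjusted p = 0.155), and lost its call without CDKL1 shRNA replicate 3 (limma adjusted p = 0.0527). MDM2 was at 0.19 and did not pass (limma adjusted p = 0.0869), and it passed without CDKL1 shRNA replicate 1 (adjusted p = 0.0460) and with dim genes removed (adjusted p = 0.020). Of its 11 probe sets 6 were lower and 0 were called, and their mean gave 0.0013 (limma adjusted p = 0.990). The falls in this list numbered 2 without control replicate 2 or 3 and 3 without any other array, and the rises numbered 2 without CDKL1 shRNA replicate 3 or with the mean of all probe sets. The ACTB covariate left 0 called genes in the list.

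Of 15 genes for the turnover of p21, p27 and p57 1 rose and 2 fell, near the 16.8% of all genes called, with a median log2 change of -0.004. SKP2, which marks p27 for degradation, read 7.79 ± 0.12 among controls and 7.57 ± 0.02 under CDKL1 shRNA (SD, n = 3 each). This was a difference of -0.22 that did not pass (limma adjusted p = 0.0628) but passed without control replicate 3 (adjusted p = 0.0362), after further quantile normalisation (adjusted p = 0.0436), with dim genes removed (adjusted p = 0.0125) and as the mean of both probe sets (adjusted p = 0.0283). Its cofactor gene CKS1B had a log2 difference of -0.004 (limma adjusted p = 0.967), with a sign that turned under 4 alternatives. CUL4B, a scaffold of ubiquitin ligases, fell by 0.46 in its brightest probe set, but 2 of its 3 probe sets were higher and their mean, at -0.07, was not called (limma adjusted p = 0.337). CDC20, the activator of the anaphase-promoting complex, fell by 0.24, and FBXL12 rose by 0.17, a call that was lost after further quantile normalisation (limma adjusted p = 0.0580). CDC20 lost its call without control replicate 3 or CDKL1 shRNA replicate 1 or 2, and FBXL12 without any 1 array except CDKL1 shRNA replicate 1. The ACTB covariate left 1 called gene, CUL4B, at -0.56 in the brightest of its disagreeing probe sets (limma adjusted p = 0.0404).

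Of 21 transcription regulators of CDKN genes 5 rose and 5 fell, against 8.97% and 7.79% of all genes, with a median of 0.02. SMAD4, the shared partner of TGF-beta SMADs, rose from 9.77 ± 0.005 to 10.14 ± 0.009 (SD, n = 3 each), by 0.37 (SE 0.04, limma adjusted p = 0.00124), with 7 of 7 probe sets higher and 4 of them called. MYC, named above as a repressor of CDKN2B, rose by 0.24 (SE 0.04, limma adjusted p = 0.00727) in its only probe set. The other SMAD genes of the list, SMAD2 and SMAD3, were at 0.06 and 0.10, ZBTB17 at 0.09 and SP1 at -0.12. None of them was called (limma adjusted p from 0.167 to 0.538). ID1, a helix-loop-helix factor known to repress CDKN2A, fell by 0.75 (SE 0.05, limma adjusted p = 0.000237), with all 3 probe sets called lower. FOXO1, a forkhead activator of CDKN1B, fell by 0.46 (SE 0.05), with 2 of 4 probe sets called lower and 1 positive. The mean of the 4 gave -0.21 (limma adjusted p = 0.0291). Of the other forkhead genes in the list, FOXO3 rose by 0.28 (SE 0.04, limma adjusted p = 0.00588). FOXO4 was at -0.0034 and was not called (limma adjusted p = 0.977). ETS1 rose by 0.45 in its brightest probe set, but another of its 3 was called lower, at -0.40, so its direction is not given. The remaining calls in this list were a rise of KLF6 by 0.17 and falls of SUZ12 by 0.23, CBX7 by 0.18 and TCF3 by 0.24. The falls in this list numbered 2 without control replicate 2 or CDKL1 shRNA replicate 2 or 3, and 3 without CDKL1 shRNA replicate 1, and the rises numbered 3 with the mean of all probe sets. The ACTB covariate left 0 rises and 2 falls.

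**Figure D3:**
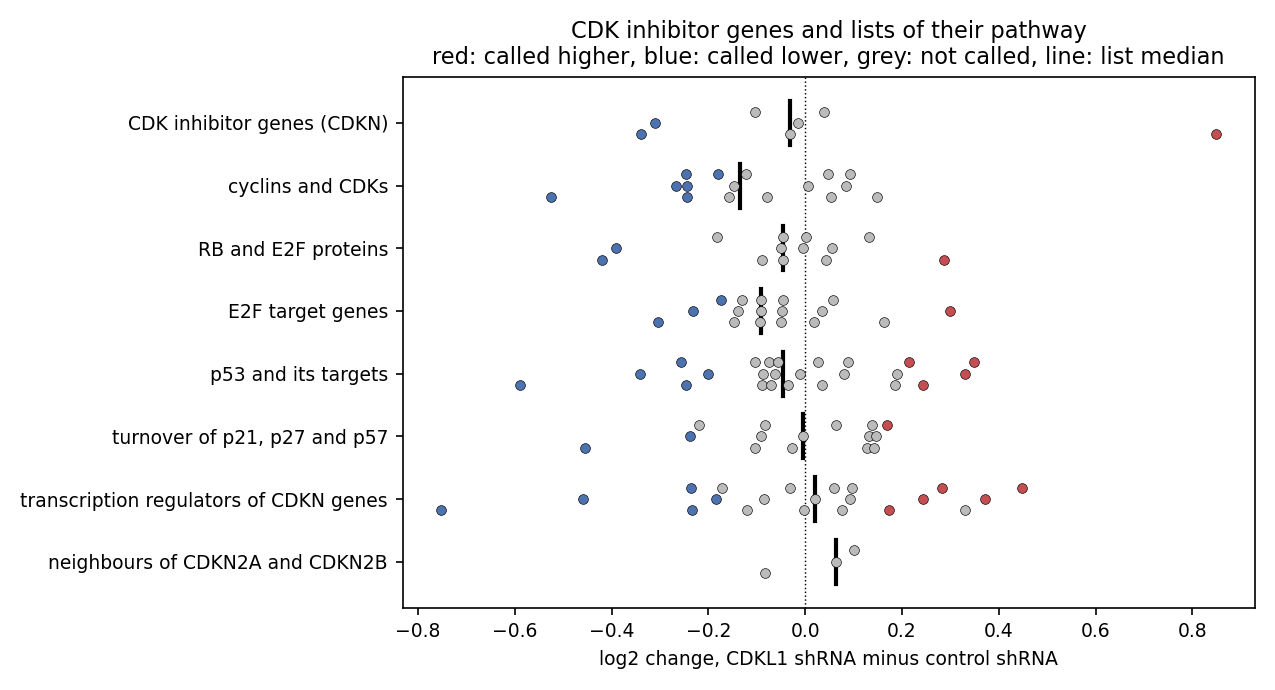
Log2 change (horizontal axis) of the 7 CDK inhibitor genes and of 7 pathway lists, 1 point per gene, with colour for the call and a line at each list's median. CDKN2B at 0.85 lies to the right of every other point, and 6 of 16 cyclin and CDK genes are called lower with none called higher.

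The genes whose values lay nearest to those of each called member were found by the mean absolute difference over the 6 arrays, after each gene was centred on its own mean. For CDKN2B these were YIPF2 (0.0364 log2 units), CA13 (0.0485) and KCNK6 (0.0529), which rose by 0.80, 0.75 and 0.87. For CDKN2D they were SLC25A10 (0.0235), WRAP53 (0.0258) and BARD1 (0.0307), and for CDKN3 they were NUP98 (0.0138), TRIOBP (0.0153) and SPRED1 (0.0195). Since the arrays form 2 groups, this likeness is mostly a like difference between the groups. The distances were larger for CDKN2B than for CDKN2D or CDKN3. These values rest on the brightest probe set of each gene. With the mean of all probe sets CA13 rose by 0.36, and the log2 changes of WRAP53, SPRED1 and NUP98 were -0.15, -0.16 and -0.0061, the last without a call. Under the ACTB covariate YIPF2, CA13 and KCNK6 were called higher (limma adjusted p from 0.0257 to 0.0454), and the other 6 genes were not called.

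**Figure D4:**
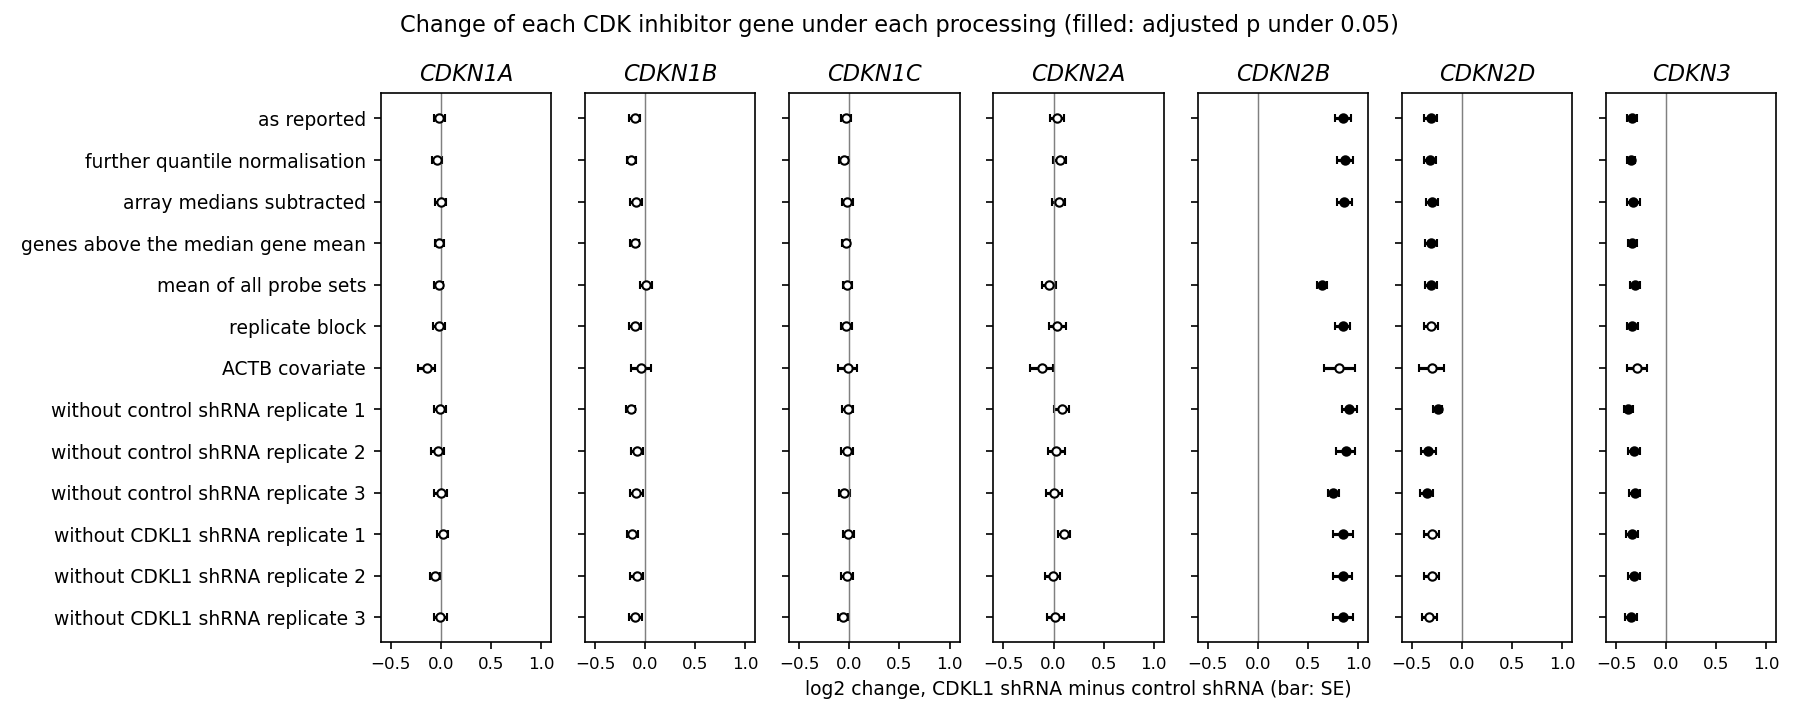
Log2 change with SE (horizontal axis) of the 7 CDK inhibitor genes under the reported processing and each alternative; filled points have an adjusted p under 0.05. CDKN2B stays between 0.64 and 0.92 and CDKN3 between -0.38 and -0.29, and under the ACTB covariate no member is filled.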

How the data were processed

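Biotinylated cRNA from 6 µg of TRIzol-extracted RNA of each of 6 DLD1 samples was put on Affymetrix arrays, per the labels' protocols. The deposited log2 values were made by the authors with RMA, per the submitters' processing notes. RMA corrects background, normalises between arrays and summarises probes. No source used here gives its version. It compresses changes of dim probe sets.

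The platform's annotation table named the probe sets (44988 with 1 symbol, 1832 with several, 2473 non-control ones with none), and 44961 matched a RefSeq gene of GRCh38.p14. The 102 control probe sets were left out. Each of 18132 genes was read from its brightest probe set, and a second fit took 49293 probe sets. Values were fitted with group as the only term in limma 3.58.1 (R 4.3.3; lmFit, eBayes, two-sided, Benjamini-Hochberg, threshold 0.05). The fit was tested on simulated data. Array medians were 6.64 to 6.70, and 3 arrays per group limit the precision. No per-sample column was left unused. Figures were made with Python 3.11.15 and matplotlib 3.10.9.

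The members and the 10 lists (138 of 146 genes measured) were chosen with earlier results of these data known. Named were all members, up to 4 called genes with the smallest adjusted p per pathway list and 16 preset pathway genes. The 3 nearest genes of each called member and some further genes of the pathway and marker lists were also named. Alternatives were a further quantile normalisation, subtraction of array medians, a filter on dim genes, the mean of all probe sets, a replicate block, an ACTB covariate and leaving out each array. Same-numbered arrays deviated from their group means with correlations of -0.06, -0.11 and 0.05, so the numbers were not taken to pair samples.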

Additional observations from a re-analysis of the deposited data

How the results depend on the processing

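CDKN1C kept its direction and stayed without a call under all 12 alternatives, and CDKN2B and CDKN3 kept their direction and call under all but the ACTB covariate (a dim-gene filter removed CDKN2A and CDKN2B). With the ACTB covariate 219 genes, 0 members and 0 member probe sets were called. CDKN2B was then at 0.81, CDKN2D at -0.30, CDKN3 at -0.29 and CDKN2A at -0.12, with SEs that grew (for CDKN2B from 0.08 to 0.16). Only the replicate number links a control sample to a CDKL1 shRNA sample. With the replicate block 1803 genes were called and CDKN2D, at -0.31, did not pass (limma adjusted p = 0.0522, and adjusted p from 0.00210 to 0.259 over its alternatives), and of the 3 control arrays only replicate 3 correlated best with its own number. The calls of RB1, CCNE1, MYBL2, MCM2, CDC20, FBXL12 and SLC25A10 were also lost (limma adjusted p from 0.0520 to 0.0914). With 1 array left out the counts were 1633 to 2399 genes, 2 to 3 members and 8 to 10 member probe sets. The log2 changes were then -0.060 to 0.018 for CDKN1A, -0.14 to -0.08 for CDKN1B, -0.065 to -0.0085 for CDKN1C, -0.0069 to 0.10 for CDKN2A, 0.75 to 0.92 for CDKN2B, -0.35 to -0.24 for CDKN2D and -0.38 to -0.32 for CDKN3. The call of CDKN2D was lost without any 1 CDKL1 shRNA array, in fits with fewer arrays. The 3040 called genes became 1839 when control replicate 2 was left out, 1865 for control replicate 3, 2026 for CDKL1 shRNA replicate 2 and 1633 for CDKL1 shRNA replicate 3.

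Signs that turned were of values without a call. The mean of all probe sets gave 0.0078 for CDKN1B, -0.047 for CDKN2A and -0.15 for CCND1. CKS1B was 0.0081 after subtraction of array medians and 0.066 with the ACTB covariate, under which MTAP was 0.0023 and CDKN2B-AS1 -0.015. With 1 array left out E2F1 ranged from -0.081 to 0.0092, CKS1B from -0.022 to 0.020 and CDKN2B-AS1 from -0.051 to 0.26. The cause was not tested.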
